A study of Mus musculus with 2 samples.

Results

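The regions described here are the most strongly covered intervals in a map of ISL1 occupancy in the embryonic mouse retina. ISL1 was profiled by CUT&Tag in wild-type retina at E13.5 in 2 samples of 1 group, with no sample of another antibody or genotype analysed here, and each sample has its own list of intervals in mm10. In CUT&Tag an antibody held on chromatin recruits a transposase that cuts and tags the DNA beside it, so that coverage marks where the antibody sat. Members were chosen by 1 measured value, the maximum signal of an interval, which is the highest coverage within it: on chromosomes 1 to 19 and X it had to be above 50 in that sample's list. This held for 496 of 120303 intervals in replicate 1 (0.412%) and for 321 of 152161 in replicate 2 (0.211%). The 817 member intervals, joined where they overlapped between the lists by at least 1 bp, made 714 regions covering 538 kb. The tissue was whole retina, so the cells that carried a region cannot be told. The labels name 2 rabbit antibodies against ISL1 without saying which sample received which, and do not say whether the samples came from separate animals.

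ISL1 is a LIM-homeodomain transcription factor that newborn retinal ganglion cells need to complete their differentiation, and homeodomain proteins of this class bind short sequences built around a TAAT core. At E13.5 most cells of the mouse retina are dividing progenitors, and ganglion cells are among the first neurons to leave the cycle. In transposase-based maps the highest coverage can lie on active promoters and enhancers, and also on sequences that the genome assembly holds in too few copies, such as satellite repeats near centromeres, repeats at chromosome ends, ribosomal DNA and nuclear copies of the mitochondrial genome. The questions were which of the very high regions recurred in the other list, where they lay, and which carried features of either kind.

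To show what lies under the members at gene starts, 4 upstream sequences are printed. They are of protein-coding genes whose promoter window lay wholly inside a region above 50 in both lists, and were taken in order of the lower of the 2 maximum signals. Each holds the 250 bases before the start site, written 5′ to 3′ on the gene's strand, from RefSeq's promoter windows for GRCm38.p6, the assembly of mm10. Capitals mark 5 short motifs on either strand, namely the homeodomain core TAAT, the GC box with the letters GGGCGG, the box named CCAAT, the cAMP response element with the letters TGACGTCA, and the ETS site with the letters CCGGAAGT, and overlapping matches run together.
Tle4: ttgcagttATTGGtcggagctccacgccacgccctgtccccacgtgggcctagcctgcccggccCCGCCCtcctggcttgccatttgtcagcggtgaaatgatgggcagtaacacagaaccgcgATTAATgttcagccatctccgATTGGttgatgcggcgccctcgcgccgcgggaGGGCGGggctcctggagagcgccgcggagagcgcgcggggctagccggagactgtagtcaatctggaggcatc
Cep170: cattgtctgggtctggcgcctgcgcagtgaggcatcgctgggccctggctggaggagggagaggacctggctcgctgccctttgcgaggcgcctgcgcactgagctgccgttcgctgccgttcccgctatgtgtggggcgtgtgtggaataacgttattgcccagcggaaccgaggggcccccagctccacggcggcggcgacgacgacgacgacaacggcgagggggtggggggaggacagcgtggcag
Zswim6: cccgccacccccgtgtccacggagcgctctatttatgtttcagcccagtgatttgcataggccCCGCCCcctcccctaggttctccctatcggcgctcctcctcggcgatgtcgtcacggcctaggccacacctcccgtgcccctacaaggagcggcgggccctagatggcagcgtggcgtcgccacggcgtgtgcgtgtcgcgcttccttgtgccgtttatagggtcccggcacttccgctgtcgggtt
Zbtb37: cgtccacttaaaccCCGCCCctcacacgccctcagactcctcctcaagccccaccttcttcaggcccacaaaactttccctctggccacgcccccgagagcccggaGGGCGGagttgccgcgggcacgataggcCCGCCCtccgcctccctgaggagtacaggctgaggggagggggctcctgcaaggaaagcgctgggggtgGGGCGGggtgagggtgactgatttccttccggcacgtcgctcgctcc
The stretches lie on the minus strand at chr19:14598184-14598433 for Tle4, chr1:176813954-176814203 for Cep170, chr13:107890065-107890314 for Zswim6 and chr1:161034850-161035099 for Zbtb37. The Tle4 stretch held 2 overlapping TAAT matches, 2 GC boxes and 2 CCAAT boxes. The Zbtb37 stretch held 4 GC boxes, the Zswim6 stretch held 1, and the Cep170 stretch held none of the 5 motifs. A match is a description of letters and not a binding site. Genes with no promoter window wholly inside such a region, among them Egr1 and Zbtb20, were not printed, whatever their signal.

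Recurrence was the first property compared, and it uses the list that did not choose the member. Of the replicate 1 members, 301 of 496 (60.7%, 95% Wilson interval 56.3 to 64.9) were overlapped by an interval of replicate 2, whatever its signal, beside 11.6% of all replicate 1 intervals. Of the replicate 2 members, 222 of 321 (69.2%, 63.9 to 74.0) were overlapped by replicate 1, beside 9.10% of all replicate 2 intervals. These intervals cover counting error within a list only. In both lists the members were therefore found again several times as often as a listed interval in general. Members were also wider and far more often uneven in coverage than listed intervals in general, as given further on. The part of width and of shape in these shares was not tested.

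The share that recurred was low in the bins up to a maximum signal of 25, and it was higher in each bin above. The other list overlapped 17.6% of the replicate 1 intervals with a maximum of 26 to 50, and 14.1% of those of replicate 2. Those of 51 to 100 were overlapped in 56.3% (249 of 442) and 63.2% (170 of 269). For 101 to 500 the shares were 34 of 36 and 30 of 30, and above 500 they were 18 of 18 and 22 of 22. Values just inside and outside the threshold showed no step there. In replicate 1, 57.6% of the 33 intervals with a maximum of exactly 49, 33.3% of the 42 with 50, 47.9% of the 48 with 51 and 48.6% of the 35 with 52 were overlapped. In replicate 2 the shares were 51.9% of 27, 42.9% of 21, 53.8% of 26 and 50.0% of 24. The upper edge of the 26 to 50 bin thus already recurred about as often as the members just above 50.

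**Figure D1:**
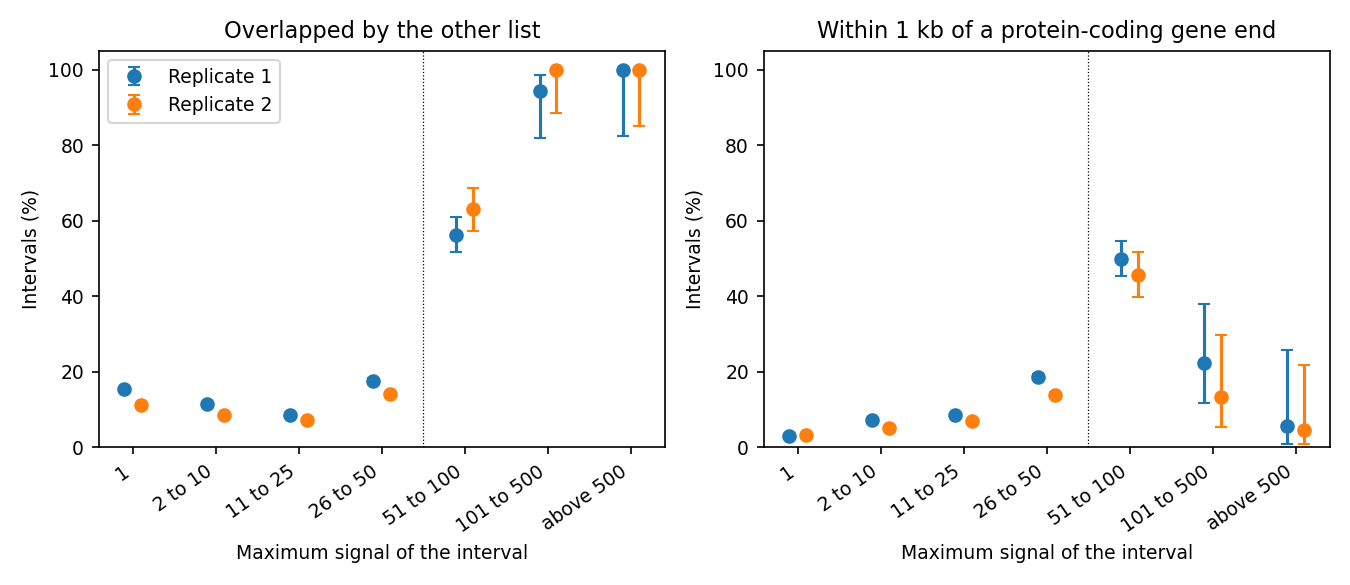
Percent of intervals overlapped by the other list (left) and percent within 1 kb of an end of a protein-coding gene (right), by the maximum signal of the interval, for replicate 1 (blue) and replicate 2 (orange). Points are shares, bars are 95% Wilson intervals, and the dotted line is the threshold of 50. Overlap climbs to all of the 18 and 22 intervals above 500, whereas closeness to gene ends is highest at 51 to 100 (50.0% and 45.7%) and lower above.

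By listing, 94 of the 714 regions were above 50 in both lists. A further 204 were above 50 in replicate 1 and listed more weakly in replicate 2, and 122 were above 50 in replicate 2 and weaker in replicate 1. The remaining 294 were listed once, 195 in replicate 1 and 99 in replicate 2. The once-listed regions were not only marginal: their maximum reached 103 at the start of Pgrmc2, which encodes a progesterone receptor membrane component, and 83 in a region 73844.5 bp from Cadm1. A region absent from a list has no value there and may still have had coverage below the unknown threshold of the caller.

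**Figure D2:**
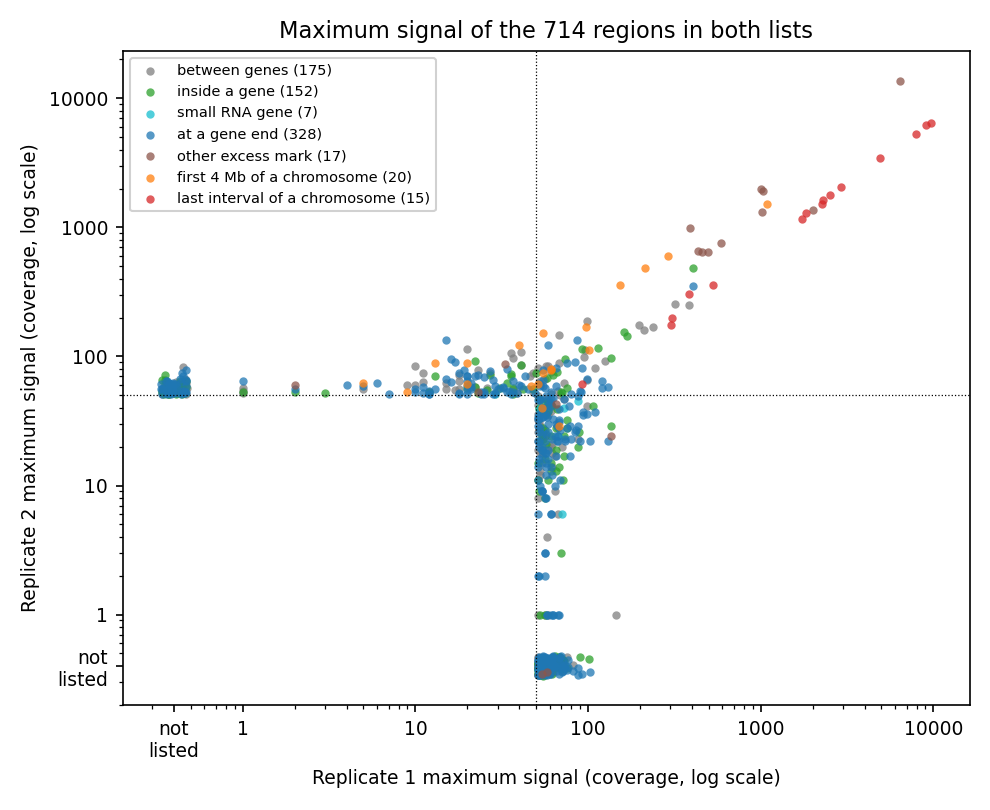
Maximum signal of each of the 714 regions in replicate 1 (horizontal axis) and replicate 2 (vertical axis), both on log scales, coloured by where the region lies, with regions missing from a list drawn apart at "not listed" with a small random offset. Dotted lines are the threshold of 50. Above 500 the points fall into a band under the diagonal, made of the last intervals of chromosomes and 1 region near the end of X, and a band over it.

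Members were wider than other intervals and differed in shape. The median width was 568.5 bp in replicate 1 (range 88 to 7700) and 538 bp in replicate 2 (83 to 15221), beside 304 and 324 bp over all intervals. Coverage was uneven, meaning that total signal was under 95% of width times maximum signal, in 99.2% of the replicate 1 members and 99.4% of the replicate 2 members, beside 6.10% and 5.84% of all intervals. Most listed intervals thus had nearly the same coverage across their whole width, and the members did not. An interval with a maximum above 50 is more likely to contain several fragments, so width and shape are tied to the rule and are given as a description. The members held 7.10% of the summed total signal of replicate 1 and 5.81% of that of replicate 2.

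Closeness to genes did not follow signal in 1 direction. Of the 714 regions, 334 (46.8%, 43.1 to 50.4) lay within 1 kb of either end of a protein-coding gene. By list, 46.4% of replicate 1 members did so beside 7.99% of all its intervals, and 39.9% of replicate 2 members beside 6.15%. The share was 18.5% and 14.0% for intervals of 26 to 50, 50.0% and 45.7% for 51 to 100, 22.2% (8 of 36) and 13.3% (4 of 30) for 101 to 500, and 1 of 18 and 1 of 22 above 500. Members of 51 to 100 were therefore the part richest in gene ends of the class, and most of the highest members lay elsewhere. Counting only annotated start sites in RefSeq's promoter table, 37.9% of replicate 1 members and 35.2% of replicate 2 members had one within 1 kb, beside 5.61% and 4.17% of all intervals. That table has a window for 17273 of the 21519 protein-coding genes, so start sites of the others are not counted.

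The promoter windows under the members were rich in CpG. The 366 windows of 300 bases that a member region overlapped, from 316 genes, had a median GC content of 65.0% and a CpG observed-to-expected ratio of 0.822, beside 53.0% and 0.387 over 32619 windows. GC boxes occurred in 77.0% of them beside 35.9% of all windows, CCAAT boxes in 46.4% beside 37.6%, the cAMP response element in 3.55% beside 1.80%, and the ETS site in 7.10% beside 3.91%. The TAAT core occurred in 35.5% beside 58.0%, its longer form CTAATG, which contains TAAT, in 4.64% beside 7.34%, the E-box CAGCTG in 10.7% beside 16.4%, and TATAAA in 5.19% beside 13.7%. All 8 motifs were searched on both strands. Of the 8 motifs, 4 were thus more frequent and 4 less frequent in these windows, which also differ from all windows in base composition, and the part of base composition in these shares was not tested.

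The strongest member at a gene end that was not at a chromosome end lay on Egr1, a zinc-finger transcription factor gene that cells switch on within minutes of stimulation. This region (chr18:34859656-34862490) reached a maximum of 406 in replicate 1 and 349 in replicate 2, and was 2835 bp wide. The other gene-end regions above 50 in both lists, last intervals of chromosomes left out, were lower, at 52 to 130 in replicate 1 and 51 to 135 in replicate 2. Egr1 therefore stood well above the 21 others in both lists.

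The genes at these regions are given with what they are known to do, and no shared function was tested. At Tle4, a Groucho-family corepressor, maximum signal was 86 in replicate 1 and 135 in replicate 2. Zbtb20 and Zbtb37, BTB zinc-finger proteins, had 76 and 89, and 65 and 81. The Zbtb37 region also overlaps Gas5, a noncoding RNA that hosts small nucleolar RNAs. Jund, an AP-1 subunit, had 121 and 57, Skil, a repressor of TGF-beta signalling, had 55 and 79, and Kdm3a, a histone H3 lysine 9 demethylase, had 55 and 66. The larger of the 2 values was in replicate 1 for Jund and in replicate 2 for the other 5.

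Some regions lay at the ends of 2 neighbouring genes. Cep170 and Sdccag8, both for centrosomal proteins, shared a region with 84 in replicate 1 and 91 in replicate 2, and Cryzl1 and Itsn1, the latter an endocytic scaffold, one with 56 and 57. Such a region cannot be given to either gene. Zswim6, a zinc-finger gene, had 92 and 82, Gga1, a Golgi adaptor, 59 and 122, and Tmx4, a thioredoxin-related membrane protein, 65 and 59. Csf2ra, a cytokine receptor subunit, had 130 and 58, and the paired models Gm20783 and LOC108167694 had 99 and 67. There were 22 gene-end regions above 50 in both lists with no excess mark, last intervals of chromosomes left out. Their ratio of replicate 1 to replicate 2 ran from 0.48 to 2.24 with a median of 1.04. They include the Csf2ra and Gm20783 regions, which lay near the last listed intervals of chromosomes 19 and 9.

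Genes of the retina were looked up in 7 lists by nearest gene end within 50 kb of a region's midpoint. Over all 21519 protein-coding genes, 2.54% were the nearest gene of a member region, and 1.87% had a region at a gene end. Of 24 retinal progenitor genes, 7 were the nearest gene of a region. For 5 of the 7 a region recurred, beside 319 of the 546 nearest genes over all protein-coding genes. Of 28 regulators of ganglion cells 2 were the nearest gene of a region, and of 20 housekeeping genes 2. None of 22 factors of other retinal neurons, 28 axon guidance genes, 20 pan-neuronal genes or 22 liver, muscle and immune genes was. The counts are small, and without replicate 1 the total over the lists falls from 11 to 4 genes, and without replicate 2 to 9. Without replicate 1 the progenitor genes fall from 7 to 3 and the housekeeping genes from 2 to 0, and without replicate 2 they are 6 and 2. The ganglion cell regulators fall from 2 to 1 without either.

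Among the progenitor genes, Six6, a homeobox gene of the early eye, had the only region above 50 in both lists, at a gene end (chr12:72944760-72945961), with 90 in replicate 1 and 54 in replicate 2. Pax6, the eye-field master regulator, had 61 and 42 at a distance of 7861 bp, and Six3, a homeobox gene of the anterior neural plate, had 56 and 24 at 2512 bp. Sox2, which maintains neural progenitors, had 2 regions, 1 listed only in replicate 2 with 56 at the gene end, and 1 with 52 and 27 at 9386 bp. Neurog2, a proneural basic helix-loop-helix gene, had 18 and 65 at 10988 bp. Dll1, a Notch ligand, and Meis1, a homeobox gene, were listed only in replicate 1, with 57 and 51. Except at Six6, a region beside a progenitor gene thus passed 50 in 1 list and was weaker or missing in the other.

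Of the ganglion cell regulators, Klf7, a Krüppel-like factor of axon growth, had 55 in replicate 1 and 34 in replicate 2 at a gene end, and Irx5, an Iroquois homeobox gene, had 11 and 63 at 23345 bp. Isl1 itself had no region within 50 kb. The closest region for which Isl1 was the nearest gene (chr13:116192896-116192990) was 95 bp wide, lay 105326 bp away and had 125 and 92. Ywhaz, a 14-3-3 protein gene of the housekeeping list, had 56 and 16, and Polr2a, the largest subunit of RNA polymerase II, had 53 and was listed in replicate 1 only. No region beside a gene of any list was above 90 in either sample.

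**Figure D3:**
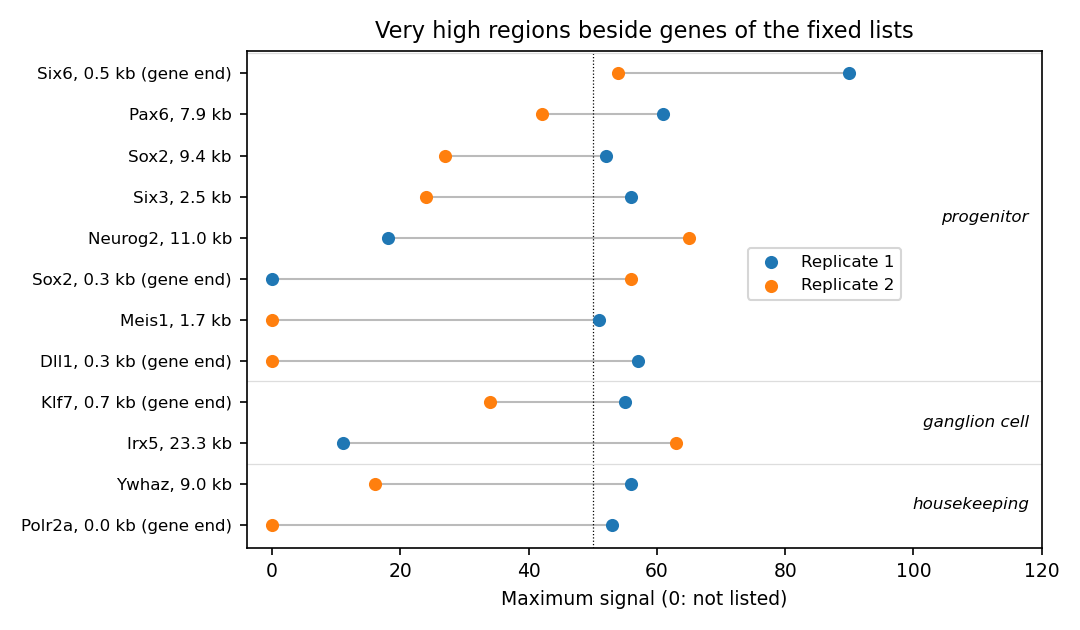
Maximum signal in replicate 1 (blue) and replicate 2 (orange) of the 12 regions whose nearest protein-coding gene belongs to a fixed list, with the distance to the gene in kb and a value of 0 where the region was not listed. The dotted line is the threshold of 50. Only the Six6 region, at 90 and 54, is above it in both samples.

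Small RNA genes were overlapped by 12 of the 714 regions (1.68%), and the share over all listed intervals is not given here. Of the 12, 11 recurred and 5 also lay at the end of a protein-coding gene. Over all 714 regions, 58.8% recurred and 46.8% lay at a gene end. Neighbouring regions beside Fcgr3 overlapped leucine and glycine tRNA genes, with 93 in replicate 1 and 37 in replicate 2 at the first and 67 and 24 at the second. Another, with 57 and 12, overlapped tRNA genes beside Hes7. The U3 RNA genes Rnu3b3 and Rnu3b4, inside Tex14, had 52 and 39, and 87 and 45. The region over Mir212 and Mir132 had 71 and 6. The tRNA and U3 genes, unlike the microRNAs, have near-identical copies, so reads can be placed at the wrong copy. Whether this happened here was not tested.

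Many of the highest members lay at the ends of chromosomes, which held 11 of the 23 regions above 500. In 15 of 20 chromosomes the last listed interval was above 50 in both lists, and in 10 it was above 500 in both. Their maximum signal ran from 92 to 9721 in replicate 1 (median 2276) and from 61 to 6387 in replicate 2 (median 1512). The last bases of the 2 lists were identical in 9 of the 15 and differed by at most 2 bp in the others. Both lists must stop where the assembled sequence stops, so this closeness is not given as agreement between the samples. Whether these bases are that point was not tested. On chromosomes 4, 6, 9, 15 and 17 the last interval was at most 29 in either list. The 15 intervals per list covered 100 to 732 bp each and held 2.95% of the summed total signal of replicate 1 and 1.75% of that of replicate 2, and they made up 8 of the 10 highest intervals of replicate 1 and 7 of the 10 highest of replicate 2.

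The largest was on chromosome 7 (chr7:145340924-145341459), with 9721 in replicate 1 and 6387 in replicate 2, 17133 bp from Mrgprd, a receptor gene of sensory neurons. The end of chromosome 14 (chr14:124801549-124802244) had 9081 and 6165, and that of chromosome 18, beside Gm45871, had 7924 and 5289. The end of chromosome 12, beside Tmem196, had 4891 and 3437, and that of chromosome 2, beside Gm14496, had 2523 and 1781. Only the end of chromosome 3 (2276 and 1512) fell within 1 kb of a gene end, that of Wls, a carrier of Wnt proteins. The genes named here are the nearest models to the end of a chromosome, and the signal is not assigned to them.

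**Figure D4:**
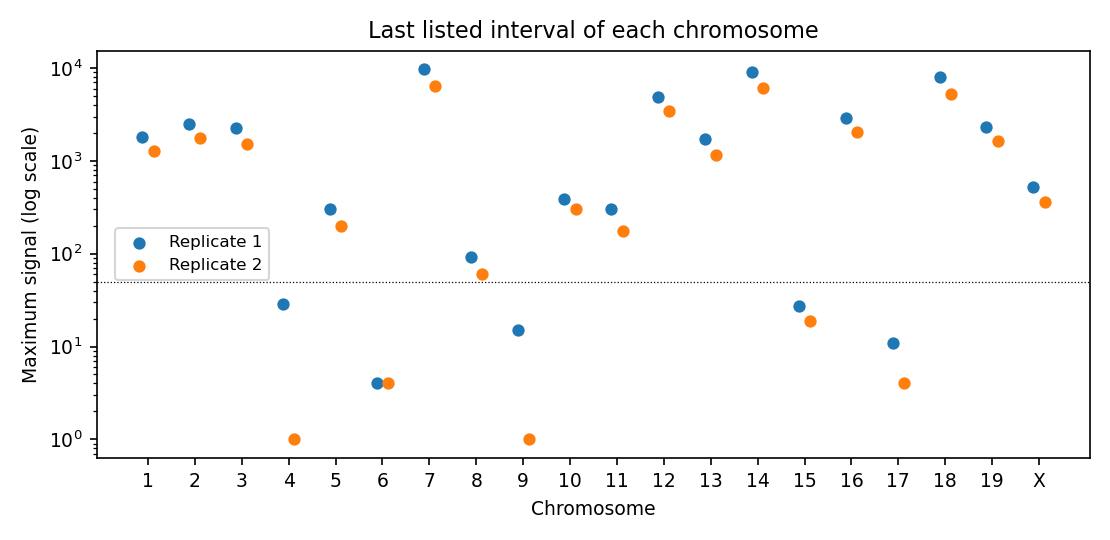
Maximum signal of the last listed interval of each chromosome in replicate 1 (blue) and replicate 2 (orange), on a log axis, with the threshold of 50 dotted. In 15 chromosomes both points lie above the line, with replicate 1 the higher, and in 5 both lie at or under 29.

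Another group of members lay at the start of chromosomes. Listed intervals begin near base 3000000 of a chromosome, and 20 regions started within the first 4 Mb. All 20 recurred, 11 were above 50 in both lists, and these 11 had a median width of 4733 bp. On chromosome 9 a cluster of 5 regions (chr9:3000002-3036392) covered 35083 of 36391 bp, with maxima up to 290 in replicate 1 and 596 in replicate 2, and its widest region spanned 15350 bp. On chromosome 17 a cluster of 5 (chr17:3006431-3038909) reached 101 and 168, and on chromosome 12 a single narrow region (chr12:3109867-3110126) had 1083 and 1519. Of the 14 regions wider than 4 kb in the whole set, 9 lay in these first stretches. The position alone also caught 2 regions at gene ends, at Nmt2 (5 and 62) and at Chchd7 and Plag1 (68 and 29).

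Inside chromosomes a few members had signals as high as the ends. A cluster of 4 regions within 5102 bp on chromosome 2 (chr2:98662232-98667333), more than 1 Mb from a protein-coding gene, held the highest value of either list, 13741 in replicate 2, with 6391 in replicate 1. Its other regions had 1024 and 1322, 457 and 648, and 2 and 60. As background, this stretch of chromosome 2 is widely set aside as an excess-signal region in mouse sequencing data. A region on chromosome 14 (chr14:19415598-19419655) had 1032 and 1915, and one inside Chl1, a cell adhesion gene, on chromosome 6 (chr6:103649047-103649292, 246 bp wide) had 1009 and 1992. A further 4 regions are of this kind, with 388 and 988 in the noncoding gene Gm33838 on chromosome 9, 492 and 639 in Gm20590 on chromosome 13, 434 and 658 in 2700054A10Rik on chromosome 17, and 1997 and 1352 on chromosome X, ending 123 kb before the end of the last interval.

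Mitochondrial-like and ribosomal sequence could be recognised only from annotation, since no genome was used here. One region (chr1:24611357-24616182, 4826 bp) overlapped the pseudogenes Gm10222 and Gm10925, the latter with the synonym mt-Atp6, a mitochondrial gene name. Its maximum was 585 in replicate 1 and 751 in replicate 2, a ratio of 0.78, and the mitochondrial chromosome itself had 2068 and 2412, a ratio of 0.86. Another region (chr17:39842997-39848829, 5833 bp) overlapped Rn18s-rs5, a ribosomal RNA repeat, with 96 and 113. Whether other members resemble mitochondrial or repeat sequence was not tested.

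The 2 lists weighed these groups differently. Among regions above 50 in both lists, the ratio of maximum signal in replicate 1 to replicate 2 was above 1 in 15 of 15 last intervals (1.25 to 1.72, median 1.48) and in 0 of 11 regions of the first 4 Mb (0.36 to 0.89, median 0.71). It was above 1 in 1 of 10 regions with another excess mark (median 0.68), and that one was the region near the end of chromosome X. Gene ends, insides of genes and stretches between genes had medians of 1.04, 0.97 and 0.96. Because the depth of the 2 libraries is unknown, a ratio of 1 has no special meaning, and only the differences between groups can be read. The ratios of chromosome ends and chromosome starts did not overlap. With 1 group and 2 samples, whether this follows the library, the antibody or the retina cannot be told apart.

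By median, the position of the maximum, which the rule did not use, set gene ends apart from chromosome ends, chromosome starts and other excess marks. It did not set those marked groups apart from one another. For overlapping intervals the distance between the midpoints of the stretches of maximum signal had a median of 140.5 bp for replicate 1 intervals of 26 to 50 and 146 bp for 51 to 100, then 34.25 bp for 101 to 500 and 6 bp above 500. From replicate 2 the medians were 132.5, 159, 33.5 and 6 bp. Among regions above 50 in both lists, the median was 6 bp at chromosome ends, 5 bp in the first 4 Mb and 7 bp with another excess mark. It was 22.5 bp between genes, 48 bp inside genes and 158.25 bp at gene ends. At gene ends 5 of 22 had maxima within 50 bp, beside 55 of all 94. The maxima of the highest regions therefore fell on nearly the same bases, and those at gene ends were spread.

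**Figure D5:**
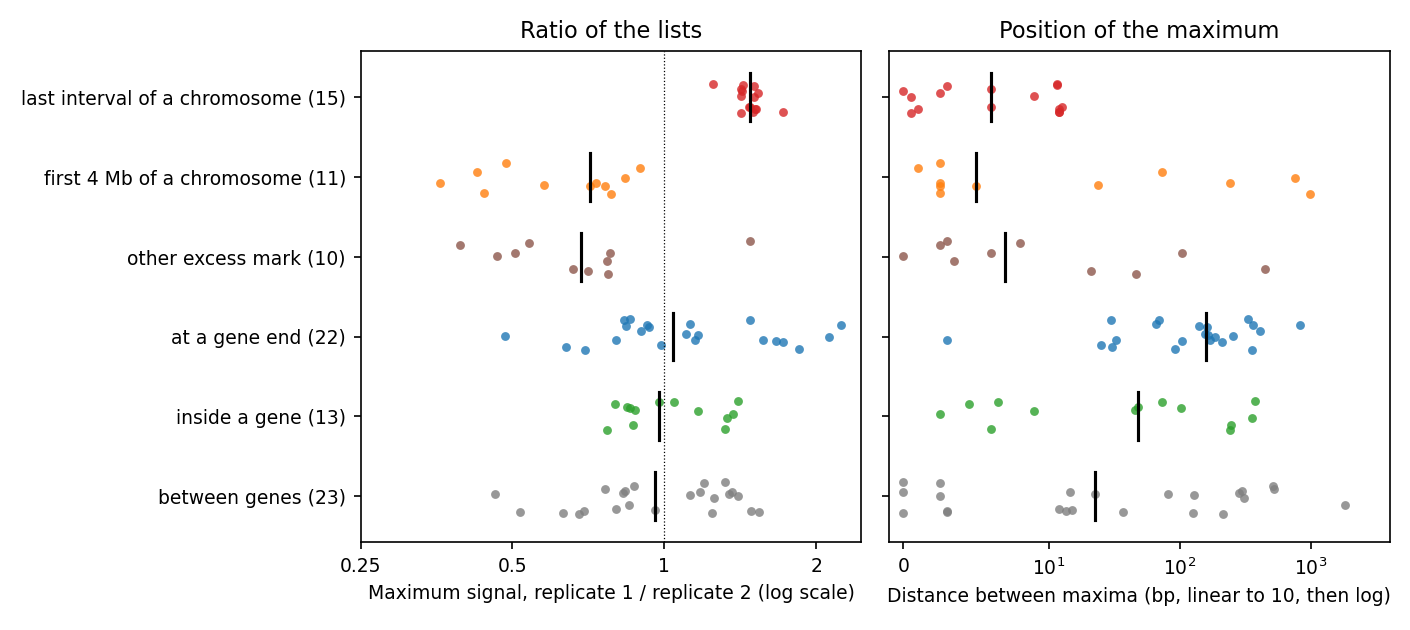
The 94 regions above 50 in both lists by where they lie, with the ratio of maximum signal in replicate 1 to replicate 2 (left, log scale) and the distance between the positions of the maxima (right, linear to 10 bp and then log). Each point is a region and black bars are medians. Chromosome ends lie at 1.25 to 1.72 and regions of the first 4 Mb at 0.36 to 0.89, and gene ends have the largest median distance, 158.25 bp.

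Outside gene ends, last intervals of chromosomes and marked stretches, 36 regions were above 50 in both lists. In 16 of them the maxima lay at most 15 bp apart, a split made after the values were seen. These 16 had a median width of 280 bp and a median ratio of 1.22 (0.69 to 1.54), and 12 had the higher value in replicate 1. Examples are 152 bp on chromosome 14 (chr14:86198992-86199143, 384 and 249), 788 bp near Gng4 (238 and 170), 277 bp near Adgre5 (211 and 160) and the 95 bp beyond Isl1 (125 and 92). The other 20 were wider, with a median of 1161.5 bp, a median ratio of 0.85 (0.46 to 1.40), and 5 higher in replicate 1. They include the strongest unmarked region of the set, inside Smo, the Hedgehog signal transducer (chr6:29747658-29749145, 406 and 482), and one 5345 bp from Aadac (317 and 253).

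Most very high regions had no other within 50 kb, a share that is tied to how many regions pass the threshold. Above 30 in place of 50, 34.1% of 6940 regions fell into clusters. The share for regions scattered evenly was not computed, so these shares are not given as more or less clustering than that. With a gap of at most 50 kb, 66 of 714 regions (9.24%) fell into 28 clusters, 23 of them pairs and 5 with 3 or more regions, and the median gap between neighbours was 1960.2 kb. The clusters of 3 or more included the stretches on chromosomes 2, 9 and 17 already described and a stretch from Skida1 to Mllt10, with 58, 54 and 136 in replicate 1, of which only the last was listed in replicate 2, with 24. Sox2, Foxd1 and Actg1 were among the genes with a pair. Regions per 10 Mb ran from 0.893 on X to 4.12 on chromosome 11, with a median of 2.93 over chromosomes.

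The features defined for the 2 kinds of region divided the set as follows. An excess-signal mark means a maximum above 500 in either list, membership in a cluster of 3 or more, or a start in the first 4 Mb. It was carried by 48 of 714 regions (6.72%), and the 23 regions above 500 carry it by definition. Counting last intervals as well made 52 regions. Besides the 23 above 500, which the definition fixes, these were 10 of 44 whose higher maximum was 101 to 500, and 19 of 647 at 51 to 100. Regulatory-element marks mean uneven coverage, overlap with the other list at any signal, and no excess mark. They were carried by 372 regions (52.1%), 185 at a gene end and 187 away from one, and 62 were above 50 in both lists. Uneven coverage held for 708 of the 714 regions, so these marks mostly record overlap without an excess mark. Whether the regions regulate genes was not tested. Only 2 regions had the shape of a single stacked fragment, flat coverage with no overlap, near Pdlim7 and Aasdhppt, with 54 each in 1 list. Of the other 292 regions, 290 were unmarked and listed once, and 2 were in both lists with nearly flat coverage.

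The marks are descriptions and not a classification by cause. Of the 48 regions with an excess mark 6 lay at a gene end, among them Chchd7 and Nmt2, and the ribosomal repeat and 4 of the last intervals carried the regulatory-element marks. Above 50 in both lists, 23 of 94 regions (24.5%) lay at a gene end, beside 142 of the 294 regions listed once. The share at gene ends was thus lower among regions above 50 in both lists. Of those 94 regions, 32 carried an excess mark. Among the 62 with regulatory-element marks, 22 (35.5%) lay at a gene end. No control library was used here, so coverage that arises without the antibody was not measured.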

How the data were processed

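CUT&Tag for ISL1 was done on nuclei of wild-type E13.5 mouse retina, with 20 cycles of PCR, per the labels' protocols. Of tools, the submitters' processing notes list Bowtie2, FastQC, SEACR and MACS2, with no version or role, and mm10 as the build. Each sample has 1 peak list of 6 columns, which hold the position, the total and the maximum signal, and the stretch of the maximum. The deposited signal is coverage in whole numbers. What threshold and control the caller had, and whether duplicates were removed, is not given in the sources used here. Coverage was exactly flat in 77.4% of replicate 1 intervals with a maximum of 11 to 25, and in 77.3% of those of replicate 2. Whether copies of the same fragment make up this coverage was not tested. Depth is unknown.

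Coordinates were made 1-based. Overlap means at least 1 bp. Genes came from RefSeq's table for GRCm38.p6, with 21519 protein-coding genes and 340 rows on scaffolds left out; all 164 genes of the 7 lists matched. Distances run from a region's midpoint to the nearest gene end, with no exon or intron classes. Shares carry 95% Wilson intervals, computed in Python 3.11.15 with pandas 2.3.3. With 1 group of 2 samples there was no test between groups. Members, lists and marks were chosen with earlier results of these data known, so none is independent support. Genes named were the nearest to the 10 highest intervals of each list, the 20 with the strongest region shared at a gene end, and list members; others named were chosen after their values were seen. Last intervals of chromosomes were added as a feature after the data were seen. Marks needing a genome (repeat masking, alignment to mitochondrial DNA) were not run. The counts of members, overlaps, gene ends and regions in clusters were tested on simulated lists, and the other steps were not. Alternatives were other thresholds, overlaps, windows, gaps, marks and each list alone. Some genes that the naming rule gives are not reported here.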

Additional observations from a re-analysis of the deposited data

Results flagged for a closer look

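Chromosomes outside those of the rule also held very high signal. The mitochondrial chromosome was 1 interval of 16299 bp in each list, with a maximum signal of 2068 in replicate 1 and 2412 in replicate 2, and held 2.19% and 2.28% of the summed total signal. Unplaced and unlocalised sequences had maxima of 193 in replicate 1, where 6 of 639 intervals were above 50, and 206 in replicate 2, where 21 of 936 were. Chromosome Y had maxima of 200 and 154, with 3 and 1 intervals above 50. These intervals were noted because they lie in data that the comparisons did not use, and no control sample was available for comparison.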

How the results depend on the processing

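The threshold on maximum signal had the largest effect. Above 100 in place of 50 there were 106 intervals in place of 817, and above 30 there were 7264. At these thresholds the share overlapped by the other list was 96.3% and 31.9% of replicate 1 members and 100% and 25.0% of replicate 2 members, and the share of regions at a gene end was 17.9% and 25.2%. Regions in clusters were 13.4% and 34.1% at these thresholds, and 5.04% and 22.7% with gaps of 10 and 200 kb. Above 100, 43.3% of regions carried an excess mark and 0% were single-fragment stacks (0 of 67, both stacks being at 54). A maximum above 500 gives the excess mark by itself, so the share with that mark is tied to the threshold. A reciprocal overlap of 50% gave 32.9% of replicate 1 members and 42.1% of replicate 2 members. At a gene end the share was 50.6% with a window of 2 kb and 39.9% by start sites in the promoter table. Choosing members from 1 list alone gave 321 to 496 intervals, 39.9% to 46.4% at a gene end, 7.66% to 10.9% in clusters, 7.66% to 13.1% with an excess mark, 0.202% to 0.312% stacks, 53.0% to 56.1% with regulatory-element marks, and 4 to 9 list genes in place of 11. The other 24 of 48 alternatives moved these values by less than their 95% interval or by less than 1.5 times. No paired analysis was possible because there is 1 group. Unknown depth and unknown duplicate removal limit every statement on signal, and the causes of the changes were not tested.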
